A study of Mus musculus with 15 samples.

Results

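CTCF peaks without cohesin and without active-chromatin acetylation numbered 10126 of the 35345 CTCF peaks of these thymocytes, 28.6% (95% exact binomial interval 28.2% to 29.1%). Members were chosen by the Rad21 and H3K27ac peak calls, so these overlaps are a description and not a finding: a CTCF peak on chromosomes 1 to 19 or X was a member when it overlapped, by at least 1 bp, no peak in either of 2 lists for Rad21 and no peak in either of 2 lists for H3K27ac. Peaks were called by the authors from ChIP-seq of wild type C57BL/6 mouse thymocytes that carried CD4 and CD8 and no CD69, with no treatment named. The series holds 15 samples, and its 8 Hi-C samples, from wild type cells and cells without CTCF or without both CTCF and Rad21, and 2 input samples were not analysed here. All values below come from the wild type, from 1 CTCF, 2 Rad21 and 2 H3K27ac libraries. The labels do not say whether the libraries of a target came from separate animals, the lists carry no read counts, and the CTCF height has no replicate, so intervals cover counting error only and no test between conditions was made. Peaks of 1 library are not replicates of a condition.

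CTCF is a zinc-finger protein that binds a long, oriented DNA motif. Cohesin, a ring of which Rad21 is a core subunit, is thought to reel chromatin into loops and to stop at CTCF, most often where the motif points into the loop. H3K27ac is a histone acetylation found at active promoters and enhancers. Thymocytes with both CD4 and CD8, called double positive, are at the stage when the Tcra locus recombines. All 8 markers of these cells that were looked up, among them Cd4, Cd8a and Rag1, had H3K27ac at the promoter in both lists, against 0 of 4 myeloid markers (Itgam had it in 1 list).

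Sequences are shown for the members with the highest CTCF enrichment, the strong CTCF peaks at which no Rad21 was called, and for the strongest peaks that had it. Each window printed here is the 101 bases around the CTCF summit in NCBIM37 (mm9), read 5′ to 3′ along the strand of the best match. Capitals mark the 13 positions of the CTCF core motif with 3 bases on either side, or the closest stretch where the core had more than 2 mismatches. The first lies in an intron of Wdr65 (chr4:118239023-118239123, minus strand) and the second in an intron of Kcnj6, a potassium channel gene (chr16:95011747-95011847, minus). The third is in an intron of Rbfox3, a splicing regulator of neurons (chr11:118600330-118600430, minus). Intergenic windows follow, the nearest start sites being those of Dusp26, a phosphatase gene (chr8:32143956-32144056, minus), and 9830107B12Rik (chr17:48256751-48256851, plus). Motifs with 0 mismatches are shown near Aptx, a DNA repair gene (chr4:40629093-40629193, minus), near 2900026A02Rik (chr5:113602485-113602585, minus), in an intron of Clnk, an adaptor of immune cells (chr5:39146360-39146460, minus), and near Etv4, an ETS factor (chr11:101676256-101676356, minus). The last windows lie at the promoters of Eln, which encodes elastin (chr5:135224262-135224362, plus), and Cryba2, a lens crystallin gene (chr1:74941659-74941759, plus).
Wdr65: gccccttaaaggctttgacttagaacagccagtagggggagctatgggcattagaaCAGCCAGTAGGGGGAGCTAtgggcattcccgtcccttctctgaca
Kcnj6: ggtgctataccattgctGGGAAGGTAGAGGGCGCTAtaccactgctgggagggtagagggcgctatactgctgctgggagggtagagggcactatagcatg
Rbfox3: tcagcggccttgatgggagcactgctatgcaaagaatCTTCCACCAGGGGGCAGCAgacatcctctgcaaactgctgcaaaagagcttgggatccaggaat
Dusp26: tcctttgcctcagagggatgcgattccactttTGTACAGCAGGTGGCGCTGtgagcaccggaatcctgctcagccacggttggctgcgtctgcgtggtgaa
9830107B12Rik: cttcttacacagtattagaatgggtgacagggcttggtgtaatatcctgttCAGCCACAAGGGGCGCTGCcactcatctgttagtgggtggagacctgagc
Aptx: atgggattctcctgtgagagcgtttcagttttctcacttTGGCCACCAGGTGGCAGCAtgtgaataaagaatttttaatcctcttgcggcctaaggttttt
2900026A02Rik: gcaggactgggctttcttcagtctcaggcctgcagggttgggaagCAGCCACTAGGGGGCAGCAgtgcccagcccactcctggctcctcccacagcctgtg
Clnk: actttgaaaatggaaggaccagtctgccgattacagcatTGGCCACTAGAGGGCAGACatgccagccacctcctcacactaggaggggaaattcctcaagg
Etv4: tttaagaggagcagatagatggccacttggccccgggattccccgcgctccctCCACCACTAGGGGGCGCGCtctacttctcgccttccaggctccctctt
Eln: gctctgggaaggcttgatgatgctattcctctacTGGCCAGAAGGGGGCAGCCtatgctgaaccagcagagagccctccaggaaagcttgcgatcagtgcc
Cryba2: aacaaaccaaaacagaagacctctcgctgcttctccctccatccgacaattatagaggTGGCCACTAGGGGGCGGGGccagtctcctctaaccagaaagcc

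For contrast, the 4 CTCF peaks of highest fold with Rad21 in both lists and no H3K27ac lay in introns of Pink1, a mitochondrial kinase (chr4:137875566-137875666, plus), and Palld, an actin-associated protein (chr8:64018777-64018877, plus), and at the promoters of Gm98 (chr19:10315279-10315379, minus) and Gins4, a replication factor (chr8:24348291-24348391, minus).
Pink1: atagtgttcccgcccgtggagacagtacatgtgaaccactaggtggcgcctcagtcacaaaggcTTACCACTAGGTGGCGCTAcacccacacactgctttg
Gm98: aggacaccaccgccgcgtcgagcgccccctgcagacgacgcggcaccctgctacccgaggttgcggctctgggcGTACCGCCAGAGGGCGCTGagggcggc
Palld: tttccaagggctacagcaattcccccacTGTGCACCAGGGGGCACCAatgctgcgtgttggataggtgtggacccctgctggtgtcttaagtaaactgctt
Gins4: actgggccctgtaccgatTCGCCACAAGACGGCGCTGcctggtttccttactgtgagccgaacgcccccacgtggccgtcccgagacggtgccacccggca

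Fold enrichment, the authors' ratio of CTCF signal over local background, was 32.3 at the Wdr65 member, with 1 mismatch in the motif. It was 20.1 at Kcnj6, whose best match had 3 mismatches, 18.5 at Rbfox3 with 0, 18.3 near Dusp26 with 1 and 17.9 near 9830107B12Rik with 4. The members with 0 mismatches reached 17.1 near Aptx, 16.6 near 2900026A02Rik, 16.3 in Clnk, 16.2 near Etv4 and 15.96 beyond the end of Myh3, the embryonic muscle myosin gene. The rest of the 12 members of highest fold had 19.8 near Arglu1, 19.4 in an intron of Myh3, 19.1 near B3galtl, 18.6 near Kazn, 18.5 near Gprc5b, an orphan receptor gene, and 18.2 in an intron of Ano1, a chloride channel gene, beside 17.7 at the promoter of Slpi. In the contrast set fold was 69.3, 63.8, 61.5 and 60.5, with 0, 1, 1 and 2 mismatches. Of the 12 members of highest fold, 5 had 3 or 4 mismatches. Nearest Rad21 peaks were 1761 bp away at Wdr65, 1592 bp at Kcnj6, 1217 bp at Aptx and 203794 bp at Rbfox3. Over the 12 members of highest fold this gap ran from 793 to 203794 bp with a median of 9471 bp. The motif was found in 7 of these 12, 5 lay in introns, 6 between genes and 1 at a promoter. The Wdr65 window shows the letters of its motif a second time, in lower case, and 2 of the 12 had an exact 16-base word repeated in tandem within 201 bases. Such words were present in 0.839% of all members and 0.738% of all CTCF peaks. Among the 3535 CTCF peaks of highest fold, to which these 12 belong, they were present in 1.895%. Of the 53 members among those peaks, 3.77% had one (0.46% to 12.98%).

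Members at promoters, within 2000 bp of a protein-coding transcription start, reached a fold of 17.7 at Slpi, a secreted protease inhibitor, 15.01 at Eln, 13.7 at Cryba2 and at Rps29, 13.2 at Pcnxl2 and 12.7 at Prkag3, a muscle subunit of AMP kinase. Eln and Cryba2 are known for connective tissue and the lens, Rps29 encodes a ribosomal protein of all cells. The Rps29 member lay 530 bp from an H3K27ac peak, whereas the gap was 31793 to 133342 bp at the other 5.

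Most members were low CTCF peaks. Median fold was 3.22 (quartiles 2.64 and 4.32, range 1.48 to 32.3) against 8.51 (5.66 and 12.1) for the 15963 peaks with Rad21 in both lists and no H3K27ac, called bound peaks from here on. Median width was 152 bp against 221 bp. The authors' q was below 0.05 for 3325 members, 32.8%, against 70.9% of all CTCF peaks and 92.7% of bound peaks. A −log10 q of at least 5 was reached by 1228 members, 12.1%, against 50.5% of all CTCF peaks. All CTCF peaks were then split into deciles of CTCF fold, 10 groups of equal size, and the members made up 77.5% of decile 1, 49.4% of decile 3, 23.6% of decile 5 and 1.499%, or 53 peaks, of decile 10. The share fell at every step from one decile to the next. Rad21 removed most other peaks from the set: 19376 overlapped Rad21 only, 588 H3K27ac only and 5255 both.

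**Figure D1:**
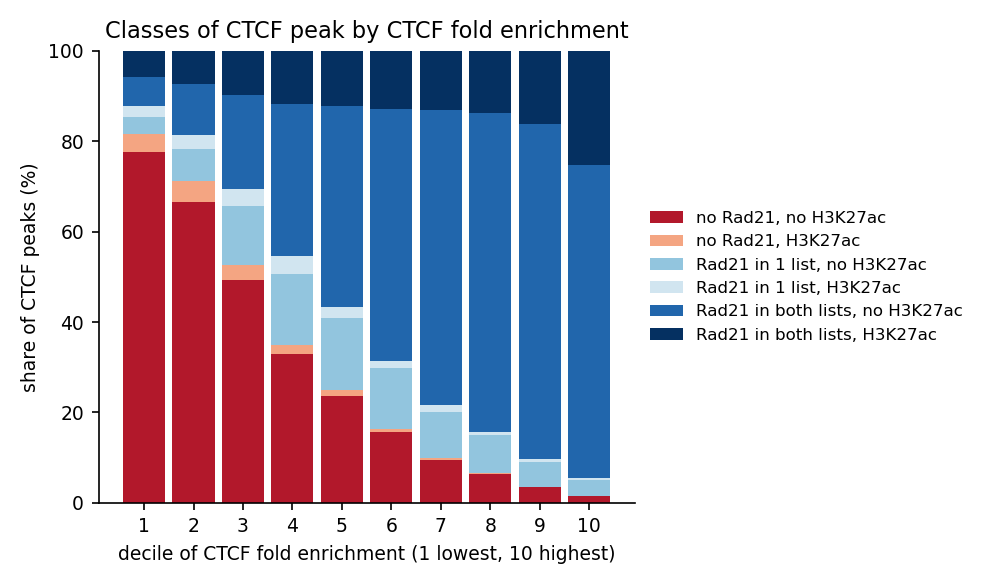
Share of CTCF peaks (y axis, %) in each class of Rad21 and H3K27ac overlap, by decile of CTCF fold enrichment over all CTCF peaks (x axis). The members (red) fall from 77.5% of the lowest group to 1.499% of the highest, and peaks with Rad21 in both lists take most of the upper groups.

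At the edge of the rule, 98 members lay within 100 bp of a Rad21 peak, with a median fold of 3.002 and the motif in 27.6%. Another 15 CTCF peaks were kept out by an overlap of at most 10 bp. Their median fold was 2.89 and 26.7% held the motif.

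The core motif, called with at most 2 mismatches on either strand within 50 bp of the summit, was present at 4586 members, 45.3% (44.3% to 46.3%), beside 72.4% of all CTCF peaks. Windows 1000 bp away held it in 4.29%. Bound peaks had it in 91.4%. The figure for members was an average over very different peaks. In decile 1 of CTCF fold 14.6% of members had the motif, in decile 2 25.1%, in decile 3 48.2%, in decile 4 75.04% and in decile 5 87.5%. From decile 5 to 10 the share stayed between 86.8% and 89.9%, where bound peaks had 90.5% to 94.97%. At the low end the classes were far apart, since 72.5% of the 222 bound peaks in decile 1 had the motif. Members with the motif therefore came from the whole range of fold, and those without it, 5540 peaks, came mostly from the lowest deciles: 4102 of them lay in deciles 1 and 2.

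**Figure D2:**
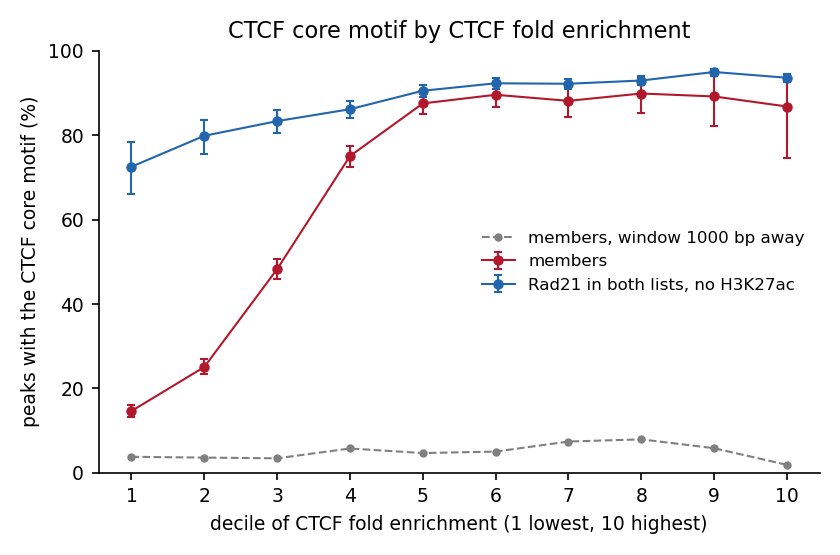
Share of peaks with the CTCF core motif (y axis, %) by decile of CTCF fold enrichment (x axis), with exact 95% binomial intervals. Members (red) rise from 14.6% to 87.5% between groups 1 and 5, bound peaks (blue) start at 72.5%, and windows 1000 bp from the members' summits (grey) stay low.

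The total score of the motif was near that of bound peaks in deciles 4 to 7 of CTCF fold and had lower medians in the bands of deciles below and above. A weight matrix of 19 positions, built from 12829 motifs of CTCF peaks with Rad21 in both lists, gave a median score of 18.46 (quartiles 14.9 and 21.67) to the 2396 motif-bearing members of deciles 4 to 7 and of 18.37 (15.16 and 21.54) to the 6392 bound peaks there. Medians were 17.39 against 17.91 in deciles 1 to 3 and 19.03 against 19.21 in deciles 8 to 10. In single deciles the order changed. Members had 15.63 against 17.58 in decile 1, 18.05 against 17.88 in decile 3 and 18.41 against 17.74 in decile 4. They had 17.99 against 18.66 in decile 7, 19.04 against 19.01 in decile 8 and 18.84 against 19.32 in decile 10. The threshold of the matrix was passed by 46.7% of members and 75.7% of all CTCF peaks. The matrix was trained on peaks of the bound kind and on none of the members. The motif lay within 20 bp of the summit in 76.7% of members that had it and in 89.8% of bound peaks. In deciles 4 to 7 this was 81.3% against 89.2%, and in deciles 8 to 10 92.7% against 92.6%.

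Single positions of the motif did differ. Reading the most frequent base at each position of the matrix gives TGGCCACCAGAGGGCACCA, numbered 1 to 19 from its 5′ end, with positions 4 to 16 as the core. Position 12 is G or T in most sites and position 16 A or G, and G at position 16 after the C at 15 makes a CpG, the dinucleotide whose cytosine mammals can methylate. In deciles 4 to 7, CpG at positions 15 and 16 was present in 39.5% of members with the motif (37.5% to 41.5%) and in 27.4% of bound peaks (26.3% to 28.5%), beside 34.0% of all CTCF peaks with a motif. CTCF peaks with Rad21 in 1 of the 2 lists and no H3K27ac lay between, at 33.3% (31.1% to 35.6%). At position 12, T was present in 20.2% of members (18.6% to 21.9%), 23.9% of peaks with Rad21 in 1 list and 33.1% of bound peaks (31.9% to 34.2%), beside 28.6% of all CTCF peaks with a motif. Over all bases at the 19 positions, T and G at 12 and A and G at 16 were the 4 that differed most between members and bound peaks. The classes were compared within the same band of deciles, but the values for all CTCF peaks with a motif cover all deciles. Inside the band, motif-bearing members numbered 872 in decile 4 and 297 in decile 7, and bound peaks 1026 and 2123. All these values are counts of letters in peaks of 1 library, and methylation was not measured.

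CpG at positions 15 and 16 rose with CTCF fold in the bound class, from 16.8% in decile 1 to 42.5% in decile 10. Members lay above bound peaks in each of the 10 deciles, with intervals that did not meet in deciles 3 to 9. Decile 3 had 31.6% against 18.7%, decile 5 40.2% against 25.8% and decile 8 52.5% against 32.6%. In decile 10, where only 46 members had a motif, the values were 45.7% (30.9% to 61.0%) and 42.5%. T at position 12 was lower in members in every decile except decile 9, where it was 32.7% against 30.7%. On autosomes CpG was present in 40.1% of members and 27.4% of bound peaks of deciles 4 to 7. Without windows that hold a repeated word (defined below) it was 41.4% and 29.6%, and away from promoters 38.5% and 26.7%. T at position 12 was 19.9% against 32.9%, 23.8% against 38.0% and 21.01% against 33.45% in the same 3 sets. The letters and these 3 sets were chosen after the data were seen.

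**Figure D3:**
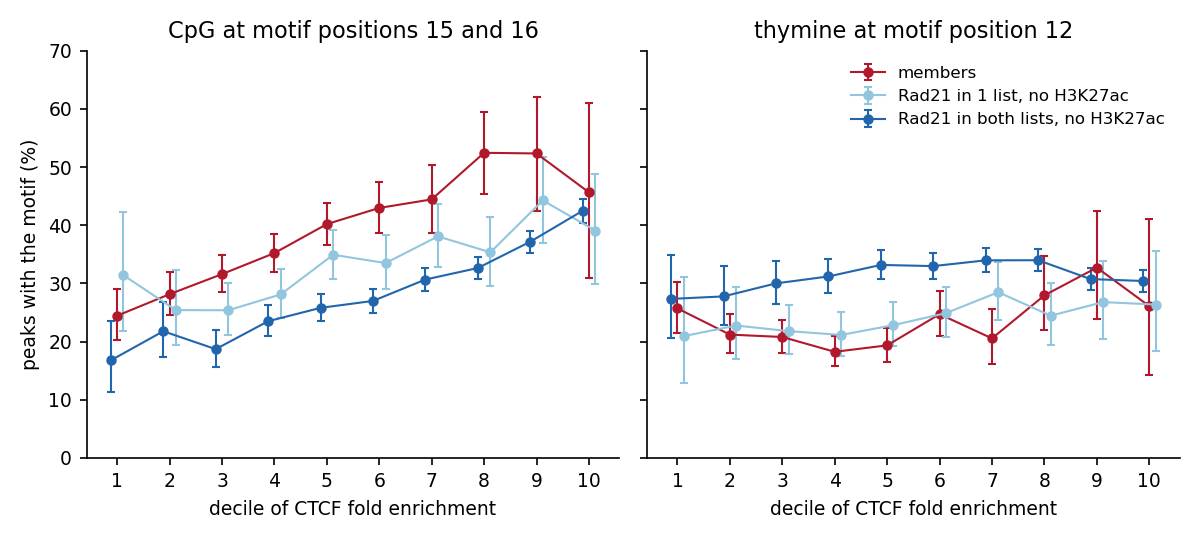
Share of motif-bearing peaks (y axis, %) with a CpG at motif positions 15 and 16 (left) or thymine at position 12 (right), by decile of CTCF fold enrichment (x axis), with exact 95% binomial intervals. In group 5 the CpG share is 40.2% for members (red) and 25.8% for bound peaks (dark blue), and thymine at position 12 is 19.3% and 33.2%.

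Some motifs of the members shared a stretch of identical bases. The 12-base stretch CCAGAAGAGGGC within the motif occurred in 835 motif-bearing members, 18.2% (17.1% to 19.4%), beside 12.9% of all motif-bearing CTCF peaks and 11.7% of bound peaks. CTCF peaks with Rad21 in 1 list and no H3K27ac had it in 17.8% (16.4% to 19.2%), close to the members. The commonest whole motifs at members that contain it were, over 19 positions:
motif a: AGGCCAGAAGAGGGCATCA
motif b: AGGCCAGAAGAGGGCACCA
motif c: AGGCCAGAAGAGGGCGTCA
Motif a was found at 68 members and 197 bound peaks and has 1401 copies on chromosomes 1 to 19 and X. Motif b was found at 45 members and 117 bound peaks, with 542 copies. Motif c, which has the CpG at positions 15 and 16, was found at 37 members and 24 bound peaks, with 304 copies. Only motif c was thus under more members than bound peaks, although bound peaks with a motif were 14589 and members 4586. The B2 family of short interspersed elements is known to have spread CTCF sites through rodent genomes. The genome used here was not repeat-masked and no copy was assigned to a family.

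The share with the 12-base stretch depended on CTCF fold. It was 20.8% of motif-bearing members and 22.3% of bound peaks in deciles 1 to 3, 18.03% and 13.9% in deciles 4 to 7, and 6.16% and 8.13% in deciles 8 to 10. Members thus had more than bound peaks only in the middle of these 3 bands (intervals 16.5% to 19.6% and 13.0% to 14.7%). Within that band motif-bearing members fell from 872 in decile 4 to 297 in decile 7, and bound peaks rose from 1026 to 2123. The stretch was not counted in single deciles, so this gap is not shown at like CTCF fold. Peaks with Rad21 in 1 list had 26.8%, 17.2% and 8.95% in the same 3 bands. A broader measure counted windows with any 24-base word that occurs at least 10 times in the genome. Such a word was present in 15.4% of members, 13.0% of all CTCF peaks and 20.02% of windows 1000 bp from the members. Among members with a motif it was 22.2% and among those without 9.71%. For motif-bearing members and bound peaks it was 26.5% and 21.4% in decile 4, and 22.4% and 20.4% in decile 5. In decile 6 it was 13.9% and 14.6%, and in decile 7 11.1% and 12.4%. How the authors placed reads that match several sites is not given in the sources used here, and the part of such reads in these shares was not tested.

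Members without the core motif were searched for words at both ends of the fold range, and those of deciles 3 and 4 were not. In deciles 5 to 10 there were 245, and their windows shared short words rich in G and C. Words were picked by their excess in these same members over their own windows 1000 bp away. That excess is therefore a description only. The word AGCGCCCC (or GGGGCGCT on the other strand) was present in 48 of them, 19.6%, in 0 of their windows 1000 bp away, in 6.45% of the 946 bound peaks of those deciles without the motif, and in 3.52% of all CTCF peaks. The word CCACTAGG, part of the core motif itself, was present in 10.2%, beside 2.43% of those bound peaks and 5% of all CTCF peaks. The word AGGGGCGC was present in 8.57%, beside 3.17% and 0.738%. GCAGTACC was present in 7.76%, beside 3.7% and 2.72%. The core was then searched for forms that are 1 base shorter. When it was searched with any 1 of its inner positions left out and at most 1 mismatch, 130 of the 245 members, 53.1% (46.6% to 59.4%), had such a form. The share was 26.9% (24.1% to 29.8%) of the 946 bound peaks and 30.3% of all CTCF peaks of those deciles without the motif. It was 5.71% of the members' windows 1000 bp away. The threshold of the full-length weight matrix was passed by 27.8% of the 245 members and 51.9% of the 946 bound peaks. Shortened forms were not counted apart from such matches. Leaving out position 10 or 11 of the 13, which are both G in the consensus and so give the same form, reached 28.6% of members and 10.5% of bound peaks, the highest share of any position. A core with 1 free position put in was found in 11.8% of members, 6.87% of bound peaks and 7.81% of all. Of the 5 members among the 12 of highest fold that had no motif, 4 held a shortened form: those in Kcnj6 and near B3galtl, Kazn and 9830107B12Rik. The one at the Slpi promoter did not. The shortened forms were searched in the same peaks after the words had been seen.

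In the 4102 members without the motif in deciles 1 and 2, no word reached such a share. Of the 12 words with the largest excess over windows 1000 bp away, the commonest was TACACACA, in 113 members against 80 windows. That was 2.76% of these members, 2.41% of all CTCF peaks of deciles 1 and 2 and 1.4% of all CTCF peaks. The largest excess was that of CACAGCAG, in 53 members, 1.29%, against 17 windows, and AGCTGGAG was in 50, 1.22%, against 17. Over all CTCF peaks these were present in 1.38% and 1.87%. Short motifs of 8 groups of factors were counted in all 5540 members without the core motif. TGTGGTT of RUNX factors was present in 2.38% against 2.51% of the windows nearby (3.61% of all CTCF peaks), and CCGGAAG of ETS factors in 0.235% against 0.343% (0.936%). GGGCGG, the GC box of SP and KLF factors, was present in 1.19% against 1.10% (5.68%), and TGANTCA of AP-1 in 3.29% against 2.92% (2.29%). CAGCTG, an E-box, was present in 4.62% against 4.04% (5.81%), AAGATGG of YY1 in 2.29% against 2.27% (2.59%) and AGATAA of GATA factors in 5.40% against 6.99% (3.03%). TGACGTC, the cyclic AMP response element, stood furthest above the windows nearby in ratio, with 20 members, 0.361%, against 0.144% (0.32%). All were searched on both strands. By contrast the 588 CTCF peaks with H3K27ac and no Rad21 had the GC box in 15.99% of windows against 3.57% nearby. A match is no evidence of a bound factor.

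Members lay away from genes' starts and from active chromatin. Promoters held 743, 7.34% (6.84% to 7.86%), beside 16.5% of all CTCF peaks and 9.64% of bound peaks. Exons held 3.40%, introns 38.0% and the space between genes 51.3%, which was 43.6% for all CTCF peaks. Median distance to a protein-coding start was 30849 bp against 16149 bp for bound peaks. The low deciles carried this difference: in deciles 1 to 3 promoters held 5.69% of members and 9.99% of bound peaks, in deciles 4 to 7 10.7% and 8.75%. GC content of the 201 bases around the summit had a median of 44.8% in members and 48.3% in bound peaks, and was 47.3% in both in deciles 4 to 7.

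H3K27ac was far from many members. The rule asks only that none overlaps, and bound peaks here also overlap none. The nearest H3K27ac peak was at a median of 50164 bp from members and 11453 bp from bound peaks, and beyond 100000 bp for 37.3% (36.4% to 38.3%) against 5.79%, beside 14.5% of all CTCF peaks. The gap was also present within deciles of CTCF fold: medians were 79736 and 8442 bp in decile 1, 34741 and 10265 bp in decile 5, and 58515 and 12324 bp in decile 10. The nearest other CTCF peak was at 19403 bp from members and 9471 bp from bound peaks. The nearest CTCF peak with Rad21 in both lists was at 47878 bp from members, and 15342 bp separated bound peaks from another of their kind. At like CTCF fold this gap was smaller, with 25464 against 17340 bp in deciles 4 to 7 and 26106 against 13080 bp in deciles 8 to 10.

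Rad21 lay at a median of 23654 bp from members, within 1000 bp for 7.32% and beyond 100000 bp for 26.5%. Of the 400 members in deciles 8 to 10, 3.95% of all, 17.3% had a Rad21 peak within 2000 bp, beside 11.5% of members of deciles 1 to 3. Over all CTCF peaks it was 74.3%, most of them by overlap. Aptx, Etv4 and Cryba2 are examples, with Rad21 1217, 1295 and 1343 bp from the member and another CTCF peak 1500, 1548 and 1457 bp away.

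Members were counted in lists of genes that act in thymocytes and of genes known for other cell types. The lists take the CTCF peaks in a gene or within 2000 bp of it. Over all protein-coding genes 24.4% of such CTCF peaks were members, and 16.4% of genes had one. Of 18 CTCF peaks in 18 genes that act in signalling from the T cell receptor and its coreceptors, among them Cd3e, Lck and Fyn, 0 were members (exact upper limit 18.5%). Of 46 in 20 regulators of double-positive thymocytes 2 were, in Tcf3 (fold 3.55) and Myb (2.34). In genes of other cell types the counts were 15 of 26 CTCF peaks in neuronal genes (57.7%, 36.9% to 76.7%), 6 of 12 in B cell genes, 4 of 8 in myeloid genes and 2 of 3 in liver genes. Rbfox3 alone held 14 of the 26 neuronal CTCF peaks and 10 of the 15 members, so the neuronal share rests largely on a single gene. The rule itself removes peaks with H3K27ac, which marks active genes. Outside H3K27ac, members were 0 of 7 peaks in the signalling genes, 2 of 14 in the regulators, 15 of 26 in the neuronal and 6 of 11 in the B cell genes, beside 34.3% of all CTCF peaks outside H3K27ac.

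The neuronal members were 10 in Rbfox3, 3 in Syt1, a calcium sensor of synaptic vesicles, and 1 each in Gad1, which makes GABA, and Mtap2, a dendritic microtubule protein. In the B cell list there were 3 in Ebf1 and 2 in Pax5, both regulators of the B lineage, and 1 in Blk, a Src-family kinase. Highest folds were 3.25 in Ebf1, 6.31 in Pax5 and 2.61 in Blk. In the myeloid list Fcgr1, an Fc receptor, had a member of fold 9.22, Cebpa one of 3.93, and Lyz2 and Emr1 one of 2.63 each. In the liver list Apob had 2, the higher of fold 7.14. Among gene families, members were 11 of 22 CTCF peaks in olfactory receptor genes (Olfr), 7 of 15 in clustered protocadherin genes and 3 of 14 in Hox clusters. The counts are small, and only 1 of the 11 Olfr members, 0 of the 7 protocadherin members and 1 of the 3 Hox members had the motif. In the lists by cell type it was present in 10 of the 15 neuronal, 1 of the 6 B cell, 2 of the 4 myeloid and both liver members.

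Rbfox3 held members and peaks with Rad21 in separate stretches. Of 14 CTCF peaks, the 4 at its lower-coordinate end had Rad21 in 1 or both lists, with folds of 13.7, 3.71, 16.3 and 10.2. All 10 further into the gene were members, and all 10 had the motif. In order of position their folds were 3.42, 5.32, 3.93, 3.68, 12.9, 5.78, 18.5, 4.73, 6.11 and 9.45. The nearest Rad21 peak was 38678 to 207946 bp away. Median fold was 5.55 over the 10 members and 11.9 over the 4 peaks with Rad21, and 1 member stood above all 4.

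**Figure D4:**
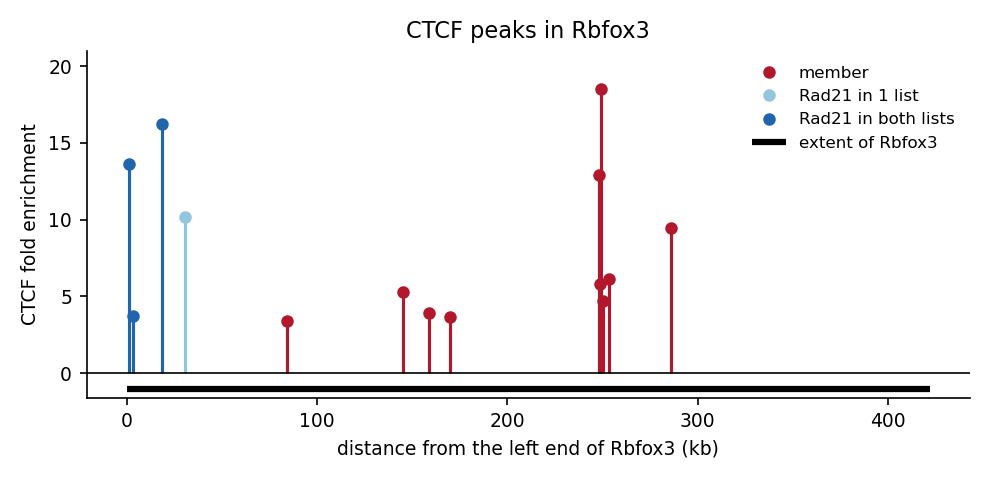
CTCF fold enrichment (y axis) of each of the 14 CTCF peaks in Rbfox3 against distance from the gene's lower-coordinate end (x axis, kb). The 10 members (red) lie inside the gene and reach a fold of 18.5, and the 4 peaks with Rad21 (blue) lie near its left end.

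Other genes filled with members were picked after their values were seen. Of 792 protein-coding genes with at least 5 CTCF peaks, 205 had no member and 19 had only members. These 19 were long, with a median of 573 kb against 160 kb for the 792. Il1rapl2, a synaptic receptor on the X chromosome, had 12 of 12 but the motif in 1, with folds up to 3.65. Ptprd, a receptor phosphatase of neurons, had 9 of 9 with no motif, and Lrp1b, a giant lipoprotein receptor, 7 of 7 with none. In Ryr3, a calcium release channel, 5 of 5 were members, 3 with the motif, up to a fold of 15.6. Tmem132c had 5 of 5, 4 with the motif, and Adamtsl3, a matrix protein gene, 6 of 6 and 4. The genes full of members thus held peaks of both kinds, low ones without a motif and higher ones with it.

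For single antigen receptor loci the shares rest on small counts of CTCF peaks, and they are read beside the 28.6% of all CTCF peaks. In the Igh locus, which B cells rearrange and which extends over 2715137 bp of chromosome 12, 17 of 44 CTCF peaks were members, 38.6% (24.4% to 54.5%), and 10 of the 17 had the motif. Their folds ran from 2.09 to 7.16 with a median of 3.15, against a median of 5.91 for the other 27. In Tcra-Tcrd, the locus that these thymocytes rearrange, 4 of 24 were members, 16.7% (4.74% to 37.4%), with folds of 4.20, 9.75, 4.34 and 3.65. The member of fold 9.75 (chr14:53257929-53258176) had a motif with 1 mismatch, 15736 bp from the nearest Rad21 peak. In Tcrb 0 of 16 were members (up to 20.6%) and in Igk 2 of 6 (4.33% to 77.7%). The intervals of Igh, Tcra-Tcrd and Igk include 28.6%.

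The X chromosome had the highest share of members. Of its 1199 CTCF peaks 620 were members, 51.7% (48.8% to 54.6%), whereas autosomes ran from 22.4% on chromosome 17 to 33.2% on chromosome 18. The X also held fewer of all calls: 7.20 CTCF peaks per Mb against 10.4 to 22.4 on autosomes, 4.77 and 6.25 Rad21 peaks per Mb in the 2 lists against 10.6 to 27.1 and 13.0 to 32.8, and a median CTCF fold of 4.20 against 5.24 to 6.58. The excess on the X was present at like CTCF fold, with 82.5% against 47.3% of autosomal peaks in decile 3. It was 32.5% against 23.3% in decile 5 (intervals 23.99% to 41.9% and 21.9% to 24.7%) and 16.7% against 9.30% in decile 7. The intervals of the X and the autosomes overlapped in deciles 5, 6 and 8 to 10. Among motif-bearing CTCF peaks of all deciles the share of members was 29.1% on the X against 14.5% to 22.6%. By decile it was 40.0% against 23.97% in decile 5, 20.9% against 15.98% in decile 6 and 3.333% against 3.295% in decile 9. Median Rad21 fold was 7.81 and 7.88 on the X, near the autosomal 7.35 to 8.06 and 7.31 to 7.77. The part of these lower densities and of the lower CTCF fold in the share of members was not tested, and the labels do not give the sex of the mice. Without the X, members were 27.8% of CTCF peaks.

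**Figure D5:**
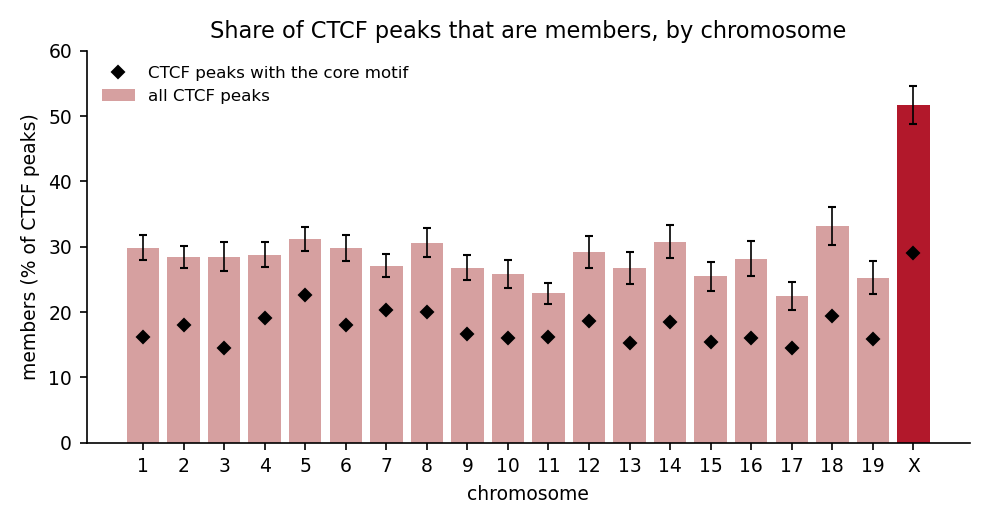
Members as a share of CTCF peaks (y axis, %) on each chromosome (x axis), as bars with exact 95% binomial intervals over all CTCF peaks and as diamonds over CTCF peaks with the core motif. The X chromosome stands at 51.7% and 29.1%, and the autosomes lie between 22.4% and 33.2% and between 14.5% and 22.6%.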

How the data were processed

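The wild type ChIP-seq lists (1 CTCF, 2 Rad21, 2 H3K27ac) held 35345, 38430 and 48462, and 38700 and 24765 peaks on chromosomes 1 to 19 and X after entries with the same coordinates were counted once, at the highest fold. Lists were deposited 1 per library on mm9, per the submitters' processing notes, which name CASAVA 1.82 and 1.84, Bowtie 1.0.0, Juicer 0.7.5, HiC-Pro 2.7.8, Bowtie2 2.3.2 and MACS2 2.1.0 but not their roles. Which thresholds and control the calls used is not given in the sources used here. The lowest −log10 q was 0 in the CTCF list and 1.307 and 1.322 in the 2 Rad21 lists. In the 2 H3K27ac lists it was 0.1883 and 0.00455. The CTCF list thus reached down to weaker calls than the Rad21 lists whose peaks the members lack. Deposited values are a fold enrichment (a ratio to local background), −log10 p and −log10 q as the authors' caller wrote them, a score, which was not used, and, in the CTCF and Rad21 lists, the summit in bp from the peak start. The depth is unknown.

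Overlap needed 1 bp. Sequence came from NCBIM37 and gene models from GENCODE vM1, with 22350 protein-coding genes. The core motif (13 positions, 2 mismatches) was searched within 50 bp of the summit on both strands, beside windows 1000 bp downstream. The weight matrix threshold of 5.42 was exceeded in 5% of those windows. Deciles are of CTCF fold over all CTCF peaks. Intervals are exact (Clopper-Pearson, 95%), and no test was run. Overlap and motif functions were tested on simulated data. Python 3.11.15, numpy 2.4.6, pandas 2.3.3, scipy 1.17.1 and matplotlib 3.10.9 were used.

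The regions named were the 12 members of highest CTCF fold, the 6 of highest fold with 0 mismatches, the 6 of highest fold at a promoter and, for contrast, the 4 bound peaks of highest fold. Up to 8 genes with a member were named from each list, in list order. The members and lists were chosen with earlier results of these data known. Motif letters, 8-base words, shortened cores, repeated and tandem words, genes with most members and single peaks of loci were chosen after the data were seen.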

Additional observations from a re-analysis of the deposited data

How the results depend on the processing

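Results are the share of CTCF peaks that are members (28.6%), their median CTCF fold (3.22), the share with the core motif (45.3%) and the share at promoters (7.34%). With CTCF peaks of −log10 q of at least 5 only, they were 6.88%, 7.63, 89.6% and 11.4%. Leaving out 1 Rad21 or H3K27ac library in turn gave shares of 28.75% to 34.4%, medians of 3.22 to 3.41, motif shares of 44.95% to 52.2% and promoter shares of 7.49% to 8.22%. The highest came without Rad21 replicate 2. Without Rad21 replicate 1 the values were 32.5%, 3.37, 50.01% and 7.95%. With any Rad21 or H3K27ac peak within 1000 bp counted as overlap, members were 25.8% and promoters 5.67%. On autosomes members were 27.8%. The motif share was 31.1% with 1 mismatch, 48.7% within 100 bp and 46.7% with the weight matrix. The promoter share was 2.62% within 500 bp. Counting only overlaps that cover 50% of the shorter peak moved no result beyond its interval. No paired analysis was possible because no result comes from a test and the replicate numbers of Rad21 and H3K27ac name lists that are all used together to choose the members. Peak lists give no depth, so a weak Rad21 or H3K27ac signal below the authors' threshold cannot be told apart from none, and 1 CTCF library gives no spread of the CTCF height.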
